A study of Rattus norvegicus with 6 samples.

Results

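The Arp2/3 complex was described here by the mRNA levels of its subunits in whole blood of rats with and without ischemic infarction of the brain. The members were Arpc2, Arpc1a, Arpc1b, Arpc3, Arpc4, Arpc5, Arpc5l, Actr2 and Actr3, and every probe set of the array whose annotated symbol was only a member was taken. This gave 12 probe sets of 8 genes out of 31042 probe sets, with 3 for Actr2, 2 each for Arpc2 and Arpc5l, and 1 each for Arpc1a, Arpc1b, Arpc3, Arpc4 and Arpc5. Actr3 had no probe set of its own, because its 3 probe sets also match its paralog Actr3b, and another probe set matches both Actr2 and a pseudogene of it. These 4 shared probe sets are given separately. The subunits were chosen by their difference between the groups in these same arrays, in which both Arpc2 probe sets were lower in the MCAO rats. That difference is therefore given as a description without a test.

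Blood was compared between 3 male Sprague-Dawley rats with middle cerebral artery occlusion (MCAO) and 3 male rats with sham surgery, all 8 weeks old, with no genetic change named for either group. In the MCAO rats a thread coated with silicone closed the origin of the left middle cerebral artery and was withdrawn to allow reperfusion. The sham rats underwent the same surgery with an uncoated thread and without occlusion, so anesthesia and the ligation of the neck arteries were common to both groups. Blood was drawn from the heart 24 h after reperfusion, and the RNA of each rat was hybridized to its own GeneChip rat genome array. The MCAO rats had been selected from a larger operated set for infarcts of similar size, so they do not cover the full range of infarcts that this surgery gives.

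The Arp2/3 complex binds to the side of an existing actin filament and starts a new filament there as a branch, which builds the branched networks that push out the leading edge of migrating leukocytes and close around engulfed particles. Actr2 (Arp2) and Actr3 (Arp3) resemble actin and form the first subunits of the branch, Arpc2 and Arpc4 form the core that clamps the mother filament, Arpc1a or Arpc1b and Arpc5 or Arpc5l are alternative subunits, and Arpc3 is a small subunit bound to Actr3. The complex is inactive until proteins of the WASP and WAVE families, recruited by the GTPases Cdc42 and Rac, bring it together with actin, and coronins and Arpin counteract it. In blood, loss of Arpc1b is known to cause an immunodeficiency with defects of platelets and T cells.

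Values are log2 expression values on the scale of the DFW normalization, which contracts differences between arrays very unequally. Across the rats, the SD had a median of 2.46e-06 over all probe sets, and only 654 probe sets had a range over 0.002 and 168 a range over 0.01. Differences are MCAO minus sham on this log2 scale and not fold changes, and a standardized difference is the difference divided by the pooled SD within the groups. Standard errors (SE) came from a limma fit over all probe sets with n = 3 rats per group. The values hold no background estimate, so it could not be judged whether a subunit was detected. In whole blood, fewer cells of a type and less RNA per cell cannot be told apart.

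The promoters of 4 genes are shown first. Arpc2 is the subunit with the widest difference between the groups, and Actr2 and Arpc5 follow another pattern across the rats. Aamp, the neighbor of Arpc2 on the chromosome, had the pattern most like that of Arpc2 over the 6 rats, the group difference included. This holds among probe sets with a range over 0.002. Each sequence runs 5′ to 3′ over the 300 bases that RefSeq gives around the gene's start, most of them upstream of it, on the GRCr8 build, for Arpc2 at chr9:83269685-83269984 on the plus strand, Aamp at chr9:83318276-83318575 on the minus strand, Actr2 at chr14:98535043-98535342 on the minus strand and Arpc5 at chr13:67454129-67454428 on the plus strand. Capitals mark the letters GGAAG on either strand (printed as CTTCC where they lie on the other strand), the core recognized by ETS factors, which are abundant in leukocytes.
Arpc2: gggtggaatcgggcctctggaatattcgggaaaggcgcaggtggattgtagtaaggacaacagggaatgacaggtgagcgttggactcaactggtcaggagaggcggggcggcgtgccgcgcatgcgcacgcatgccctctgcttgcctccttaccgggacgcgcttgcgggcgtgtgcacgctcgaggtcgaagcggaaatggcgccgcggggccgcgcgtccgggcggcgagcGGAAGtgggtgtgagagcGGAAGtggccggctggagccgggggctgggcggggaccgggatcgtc
Aamp: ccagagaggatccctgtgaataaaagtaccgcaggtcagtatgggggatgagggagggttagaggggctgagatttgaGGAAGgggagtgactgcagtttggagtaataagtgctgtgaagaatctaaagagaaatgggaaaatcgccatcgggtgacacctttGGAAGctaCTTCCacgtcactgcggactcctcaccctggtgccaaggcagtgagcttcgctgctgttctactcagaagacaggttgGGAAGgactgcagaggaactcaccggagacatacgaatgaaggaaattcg
Actr2: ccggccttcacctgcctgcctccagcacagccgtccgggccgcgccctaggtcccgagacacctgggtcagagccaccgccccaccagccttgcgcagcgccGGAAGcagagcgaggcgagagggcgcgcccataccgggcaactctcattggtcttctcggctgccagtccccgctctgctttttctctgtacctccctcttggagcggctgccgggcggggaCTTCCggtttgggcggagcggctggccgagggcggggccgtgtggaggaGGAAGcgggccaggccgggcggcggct
Arpc5: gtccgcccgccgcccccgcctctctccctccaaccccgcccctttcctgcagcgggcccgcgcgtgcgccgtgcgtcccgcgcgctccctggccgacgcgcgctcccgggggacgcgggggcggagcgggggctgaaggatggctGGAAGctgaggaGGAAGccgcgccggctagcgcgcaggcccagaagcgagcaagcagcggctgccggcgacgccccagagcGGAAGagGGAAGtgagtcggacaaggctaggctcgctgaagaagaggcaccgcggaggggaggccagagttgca
The RefSeq table held promoters of 8 of the 9 members. GGAAG was found 2 times in the Arpc2 window, 4 times in that of Aamp, 3 times in that of Actr2 and 4 times in that of Arpc5. Of 33365 rat promoters of this length, 70.1% held GGAAG at least once and 16% held it 3 or more times. The letters GGGCGG of the GC box, searched on both strands, occurred 3 times in the Arpc2 window, 5 times in the Actr2 window, 4 times in the Arpc5 window and 0 times in the Aamp window, and in 33.1% of all promoters. The CArG box, the site of the serum response factor that drives many actin genes, was not found in the window of any of the 8 members, and 1.63% of all promoters held it. These matches are a description of the letters.

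Arpc2 showed the widest difference of all subunits, and all 3 MCAO rats were below all 3 sham rats at both of its probe sets. Arpc2 (GRCr8 chr9:83269884-83300610) encodes the subunit that, with Arpc4, holds the complex on the mother filament. At Arpc2 probe set 1371511_at, the log2 values were 8.629, 8.642 and 8.664 in MCAO rats 1, 2 and 3, and 8.693, 8.673 and 8.735 in sham rats 1, 2 and 3. The groups did not overlap, MCAO rat 1 was the lowest and sham rat 3 the highest, and only 0.00870 separated MCAO rat 3 from sham rat 2. The difference was -0.055 (SE 0.020, n = 3 per group), with a standardized difference of -2.14. At Arpc2 probe set 1375137_at, the log2 values were 6.815, 6.819 and 6.826 in MCAO rats 1, 2 and 3, and 6.836, 6.829 and 6.857 in sham rats 1, 2 and 3. The rats thus stood in the same order at both probe sets, with the groups apart. The difference at this probe set was -0.020 (SE 0.0085), with a standardized difference of -1.85.

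The 2 Arpc2 probe sets differed in the size of their difference but hardly in their pattern. The difference was 2.695 times as large at 1371511_at as at 1375137_at, and the range over the rats was 2.54 times as large. Across the 6 rats their values had a Pearson r of 0.993, and the deviations from the group means, in which the contrast between the groups is removed, had an r of 0.988. Their ranges of 0.106 and 0.0417 were the 11th and the 43rd widest of all probe sets. Sham rat 3 weighed on the size of both differences. Without this rat the difference was -0.038 at 1371511_at and -0.012 at 1375137_at, and the standardized differences were -2.28 and -2.27. With any other rat left out the difference lay between -0.069 and -0.047 at 1371511_at and between -0.026 and -0.018 at 1375137_at.

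**Figure D1:**
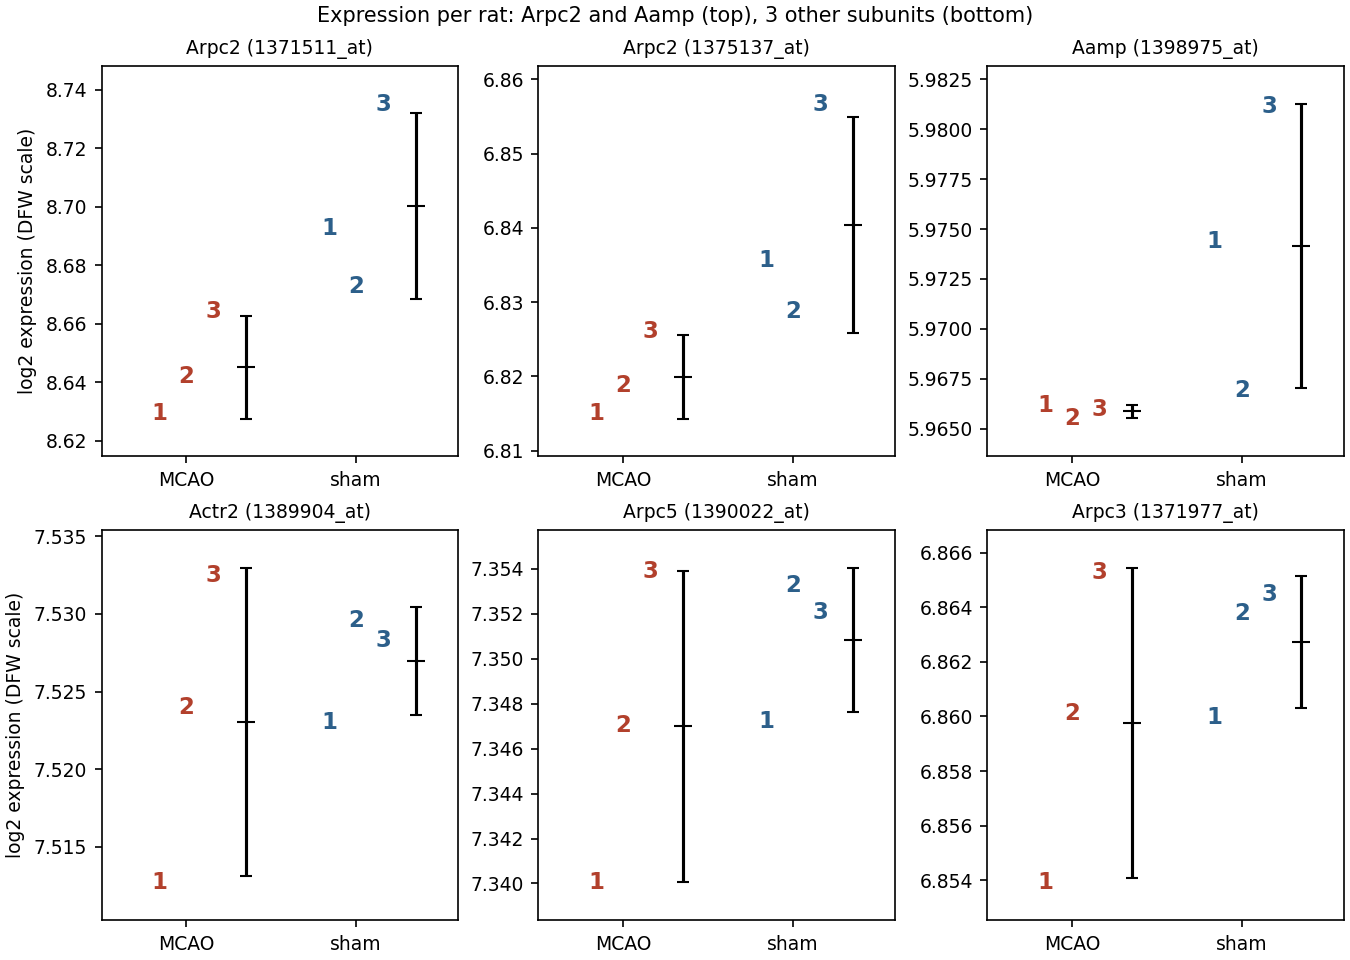
Log2 expression on the DFW scale (vertical axes, each panel with its own range) in the MCAO and sham rats for the 2 Arpc2 probe sets and Aamp in the top row and for Actr2, Arpc5 and Arpc3 in the bottom row, with each rat drawn as its number and bars showing the mean ± SD of 3 rats. The groups do not overlap in the top row, whereas in the bottom row MCAO rat 1 is the lowest and MCAO rat 3 the highest of all 6 rats.

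Rank Products, run over 31042 probe sets at a false discovery rate (FDR) under 0.05, called 2 of the 12 subunit probe sets lower in MCAO, both of Arpc2, and called 0 higher. Over all probe sets, 0.602% were called lower and 0.129% higher, and nothing is read from the count of subunits, since this contrast chose them. The FDR of lower expression was 0.0809 at Arpc5, 0.15 at Actr2 probe set 1389904_at, 0.179 at Arpc1a and 0.211 at Arpc3. Over all probe sets the highest FDR called lower was 0.0499 and the lowest not called was 0.05. Calls went mostly to probe sets with a wide range, and 25.5% of the 654 with a range over 0.002 were called lower. All 3 MCAO rats lay below all 3 sham rats at 2 of the 12 subunit probe sets and above them at 0, whereas 3.6% of all probe sets were separated in the first direction and 4.82% in the second. Of the 654 with a range over 0.002, 9.63% lay below in this way.

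The other 10 subunit probe sets had far smaller differences, none was called, and the groups overlapped at each of them. Their mean was lower in MCAO at 9 of 10, with a median standardized difference of -0.52 and a range from -1.30 to 1.12. The median was 0.08 over all probe sets but -0.65 over the 654 with a range over 0.002. The direction at these probe sets rested on MCAO rat 1. Without it only 5 of 10 had a lower mean in MCAO and the median standardized difference was 0.13, whereas leaving out any other rat kept 9 of 10 lower. In the other direction, the median was -1.57 without MCAO rat 3.

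Actr2 (chr14:98500119-98535092), the actin-like subunit Arp2 that starts the new filament, had the widest range among these at its probe set 1389904_at. The log2 values of Actr2 there were 7.513, 7.524 and 7.532 in MCAO rats 1, 2 and 3, and 7.523, 7.530 and 7.528 in sham rats 1, 2 and 3. The sham rats lay inside the span of the MCAO rats, of which rat 1 was the lowest and rat 3 the highest of all. The difference was -0.0039 (SE 0.0057), with a standardized difference of -0.53. The other Actr2 probe sets, 1375424_at and 1398626_s_at, placed the same rats at both ends, with differences of -0.000457 (SE 0.0010) and -0.000142 (SE 0.000558). Without MCAO rat 1 the difference turned positive at all 3 Actr2 probe sets, with 0.00127 at 1389904_at.

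Arpc5 (chr13:67454379-67463288), the subunit whose place can be taken by Arpc5l, showed the same arrangement of rats. The log2 values of Arpc5 were 7.340, 7.347 and 7.354 in MCAO rats 1, 2 and 3, and 7.347, 7.353 and 7.352 in sham rats 1, 2 and 3. Again MCAO rat 1 was the lowest, MCAO rat 3 was the highest and the groups overlapped. The difference was -0.0039 (SE 0.0041), with a standardized difference of -0.71, and was -0.000382 without MCAO rat 1 and -0.0073 without MCAO rat 3. The log2 values of Arpc3 (chr12:39833569-39847436), the small subunit bound to Actr3, were 6.854, 6.860 and 6.865 in MCAO rats 1, 2 and 3, and 6.860, 6.864 and 6.864 in sham rats 1, 2 and 3. MCAO rats 1 and 3 were at the ends here too, and the difference was -0.0030 (SE 0.0034), which was -4.33e-05 without MCAO rat 1.

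The alternative subunits Arpc1a and Arpc1b behaved differently from each other, although their genes lie 6.7 kb apart on chromosome 12 of GRCr8 (Arpc1a at 14616245-14639052 and Arpc1b at 14595939-14609501). The log2 values of Arpc1b, the form that prevails in blood cells, were 6.6322, 6.6331 and 6.6347 in MCAO rats 1, 2 and 3, and 6.6330, 6.6342 and 6.6338 in sham rats 1, 2 and 3. This is the arrangement of Actr2, Arpc3 and Arpc5, with a difference of -0.000318 (SE 0.000765). The log2 values of Arpc1a were 8.3545, 8.3545 and 8.3545 in the MCAO rats, and 8.3545, 8.3553 and 8.3565 in sham rats 1, 2 and 3. Only sham rats 2 and 3 stood apart at Arpc1a, sham rat 1 lay among the MCAO rats, and the difference was -0.000941 (SE 0.000558). Across the 6 rats, Arpc1a and Arpc1b had an r of 0.278.

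The remaining subunits were nearly constant on this scale. The range over the 6 rats was 8.90e-05 at Arpc4 (chr4:148077799-148088427), the partner of Arpc2 in the core, with a difference of -2.11e-05 (SE 3.12e-05). MCAO rat 1 was the lowest and MCAO rat 3 the highest at Arpc4 as well. The 2 probe sets of Arpc5l (chr3:43169518-43177224) had ranges of 0.000266 and 4.94e-06, had differences of opposite sign (-7.34e-05 at 1375641_at and 1.80e-06 at 1382016_at), and had an r of -0.298 to each other. Because DFW contracts probe sets unequally, a narrow range does not show that a transcript was stable.

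Actr3 (chr13:39353413-39396509), the other actin-like subunit, could be followed only through probe sets shared with Actr3b. The log2 values at the widest of them, 1370890_at, were 7.0289, 7.0301 and 7.0316 in MCAO rats 1, 2 and 3, and 7.0302, 7.0312 and 7.0310 in sham rats 1, 2 and 3. The order of rats at the ends was again that of Actr2, with a difference of -0.000586 (SE 0.000771). The remaining shared probe sets, 2 of Actr3b and Actr3 and 1 of Actr2 and its pseudogene, had ranges of at most 0.000122.

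**Figure D2:**
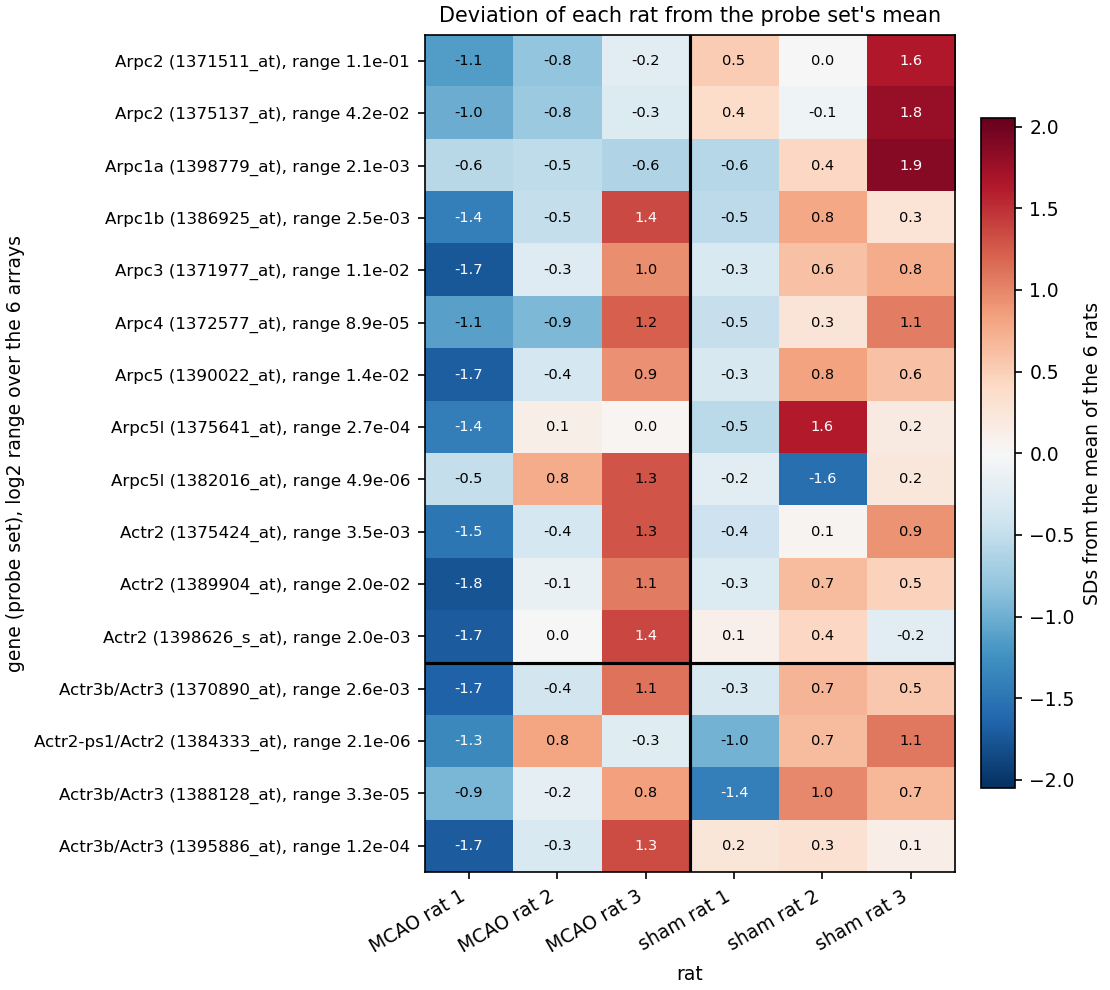
Deviation of each rat from the mean of the 6 rats, in SDs (color and printed value), for the 12 subunit probe sets (above the horizontal line) and the 4 shared probe sets (below it), with MCAO rats to the left of the vertical line and each log2 range beside the name. Arpc2 runs from MCAO rat 1 to sham rat 3, whereas Actr2, Arpc1b, Arpc3, Arpc4 and Arpc5 run from MCAO rat 1 to MCAO rat 3.

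Arpc2 thus did not move across the rats as most of the other subunits did. Of the 10 other probe sets, 8 had their lowest value in MCAO rat 1 and 8 had their highest in MCAO rat 3. Arpc2 was also lowest in MCAO rat 1 but had its highest value in sham rat 3. The 6 other probe sets with a range over 0.002, with Arpc1a set aside, belonged to the 4 genes Actr2, Arpc3, Arpc5 and Arpc1b. Over their 15 pairs, r lay between 0.813 and 0.991 across the 6 rats, with a median of 0.926, and between 0.811 and 0.993 within the groups. Arpc1a was set aside after its values were seen, and with it the 21 pairs had an r between -0.0263 and 0.991, with a median of 0.902. Over the 12 pairs of an Arpc2 probe set with these, r lay between 0.194 and 0.616, and between 0.159 and 0.732 within the groups. All of these values share the same 6 arrays and are given as a description. Arpc1a was nearer to Arpc2, with an r of 0.821 to the mean Arpc2 profile and of 0.340 to the mean profile of the other subunits with a range over 0.002, itself left out.

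The pattern of Actr2, Arpc3, Arpc5 and Arpc1b was widespread in these arrays and that of Arpc2 was not. Of the 654 probe sets with a range over 0.002, 406 (62.1%) were lowest in MCAO rat 1, against 19.5% of all probe sets. Both Arpc2 probe sets were among these 406, so this count does not set Arpc2 apart. Highest in MCAO rat 3 were 245 of the 654, without Arpc2. The mean profile of the 7 other subunit probe sets with a range over 0.002 included Arpc1a. It had an r over 0.9 with 202 (30.9%) of the 654 and with 48 (28.6%) of the 168 with a range over 0.01. Both counts include probe sets that form this profile. The shared Actr3 and Actr3b probe set 1370890_at had an r of 0.994 to this profile. By contrast, 3 of 652 probe sets, with the 2 of Arpc2 left out, had an r over 0.9 to the mean Arpc2 profile. The part of MCAO rats 1 and 3, as single animals or arrays, in the pattern of the other subunits was not tested.

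**Figure D3:**
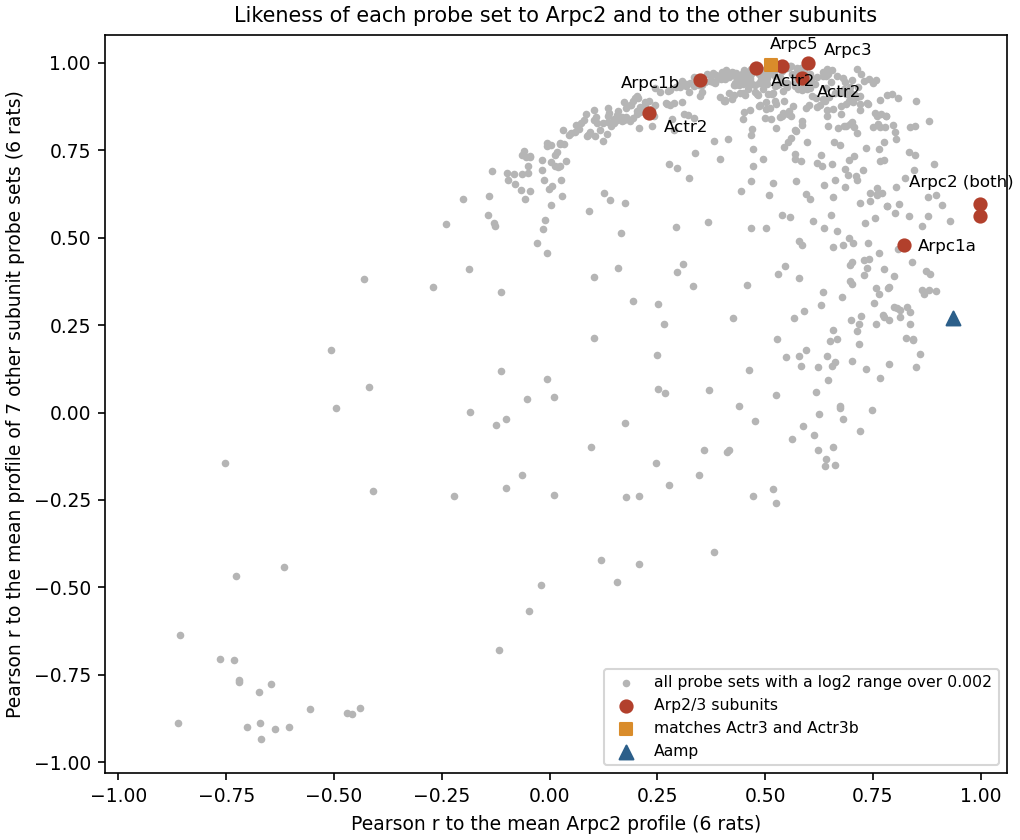
Pearson r over the 6 rats to the mean Arpc2 profile (horizontal axis) and to the mean profile of the 7 other subunit probe sets with a log2 range over 0.002 (vertical axis), for all probe sets with such a range, with subunits, the shared Actr3 probe set and Aamp marked. The 2 Arpc2 probe sets and the 7 others, Arpc1a included, are part of the profile of their own group, and many gray points lie with Actr2, Arpc3, Arpc5 and Arpc1b, whereas few lie near Arpc2.

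The gene whose pattern was most like that of Arpc2, among probe sets with 1 symbol and a range over 0.01, was Aamp, which encodes a protein with WD repeats linked to cell migration. Aamp lies at chr9:83312519-83318325 in GRCr8, 11.9 kb from the end of Arpc2. The log2 values of Aamp at 1398975_at were 5.9662, 5.9655 and 5.9660 in MCAO rats 1, 2 and 3, and 5.9744, 5.9669 and 5.9811 in sham rats 1, 2 and 3. The MCAO rats were nearly level and below all sham rats, which stood in the order that they had at Arpc2. The difference was -0.0083 (SE 0.0039), and r to Arpc2 was 0.937 across the rats and 0.869 within the groups. The next in likeness by the same criteria were Bap1, a deubiquitinase (0.897), and Rbm3, an RNA-binding protein induced by cold (0.896). They were followed by Xpo7, a nuclear exporter (0.860), and RT1-Db1, an MHC class II chain (0.837). Slc7a5, Phf7, Fcmr, Paqr9 and Phospho1 followed with r between 0.786 and 0.809. All 10 were called lower in MCAO, and all but Xpo7 and Paqr9 had every MCAO rat below every sham rat. Likeness to Arpc2 uses the contrast itself, so these calls add nothing to it. With the range lowered to 0.002, Praf2 (0.930) and the probe set shared by Ube2v1l1 and Ube2v1 (0.910) also had an r over 0.9. Within the groups, their r of 0.888 and 0.876 exceeded that of Aamp.

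Around Arpc2, within 100 kb on chromosome 9, Aamp was the only gene with a probe set whose range passed 0.002. A further Aamp probe set, 1395346_at, had a range of 0.000557 and an r of 0.860 to Arpc2, whereas 1380987_at and 1394853_at had an r of -0.713 and -0.637 at ranges of 2.75e-06 and 1.38e-06. At 1394853_at all MCAO rats were above all sham rats. Pnkd had an r of 0.732 at 1372109_at and of -0.426 at 1373312_at, with ranges of 0.000202 and 1.67e-05. Tmbim1, an inhibitor of cell death, had an r of 0.816 at a range of 3.61e-05, with all MCAO rats below all sham rats. The chemokine receptor genes Cxcr1 and Cxcr2, which lie on the other side of Arpc2, had an r of 0.107 and -0.196. Gpbar1, a bile acid receptor gene between Arpc2 and Aamp, had no probe set of its own. The predicted gene LOC103690558 overlaps the start of Arpc2 in the annotation and had no probe set of its own either.

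**Figure D4:**
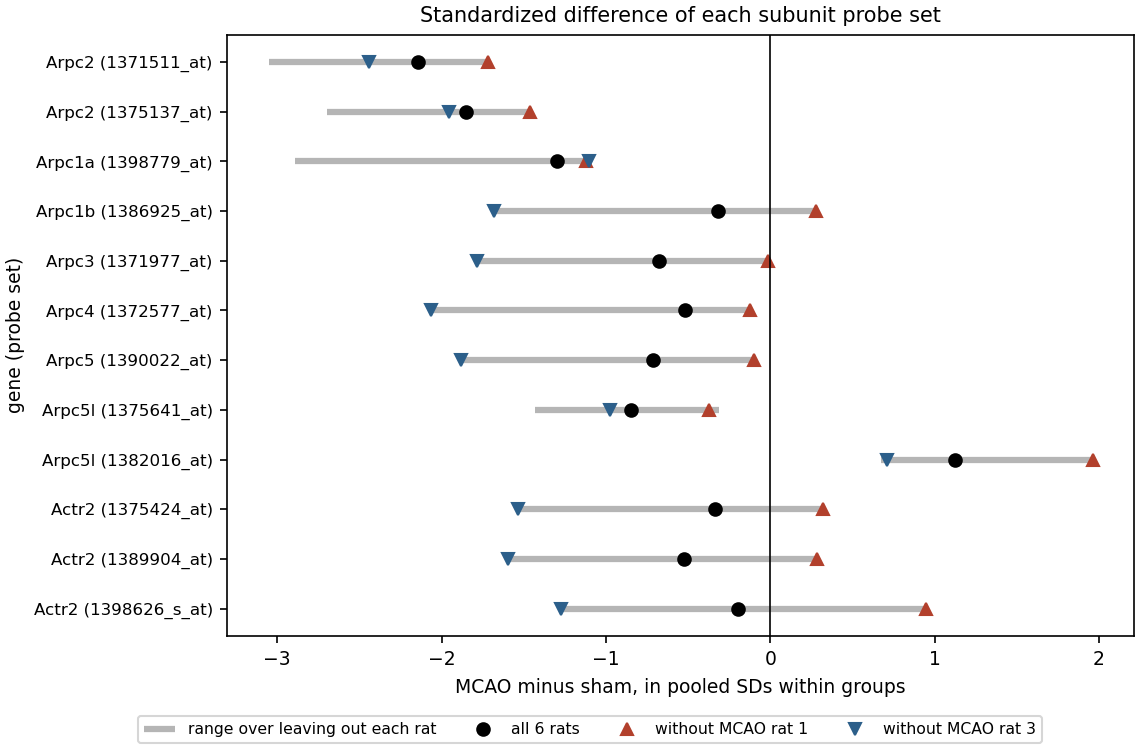
Standardized difference, MCAO minus sham in pooled SDs within groups (horizontal axis), of each subunit probe set with all 6 rats (black), without MCAO rat 1 (red triangles) and without MCAO rat 3 (blue triangles), with gray bars spanning the values when each rat is left out in turn. Arpc2 stays below -1.46 whichever rat is left out, whereas Arpc1b and the 3 Actr2 probe sets cross 0 without MCAO rat 1.

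The proteins that act on the complex or on its product were described with 5 lists, each gene by its probe set with the highest mean. Of the activators, the WASP and WAVE proteins and their partners, 21 of 24 were measured and 0 were called in either direction. Their median standardized difference was -0.12, and the 3 furthest from 0 were Washc5 (-1.74) and Washc1 (-1.37) of the WASH complex and Cyfip2 (-1.21) of the WAVE complex, at differences no further from 0 than -2.46e-05. The mean profile of the activators across the rats had an r of 0.975 to that of the other subunits and of 0.421 to that of Arpc2. Of the 8 inhibitors, 1 was called lower, Coro1a, the coronin of leukocytes, with a difference of -0.0053 (SE 0.0048) and overlapping groups. Gmfb (-1.14), which takes branches apart, and Coro1c (-0.96) were the furthest from 0 in standardized difference, and the median of the list was -0.66.

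Upstream of the activators, 12 of 13 signalling genes were measured and 1 was called lower, the GTPase gene Cdc42, with a difference of -0.0018 (SE 0.0011). The groups overlapped at Cdc42, with a standardized difference of -1.22. Elmo1 (-1.53) and Dock8 (-1.22), which help to activate Rac and Cdc42, had a standardized difference of similar size. Every MCAO rat was below every sham rat at Elmo1, at a difference of -2.03e-06. The median of this list was -0.74. The mean profile of this list had an r of 0.989 to the other subunits and of 0.579 to Arpc2, although Cdc42 itself had an r of 0.848 to Arpc2. Of the actin genes and filament partners, 23 of 27 were measured and 3 were called lower, namely Pfn1, which loads actin monomers for growth, Lcp1, which bundles filaments in leukocytes, and Myl12b, a light chain of myosin. Their differences were -0.0019 (SE 0.0011), -0.0065 (SE 0.0069) and -0.0015 (SE 0.000880). Diaph1 (2.03), a formin that grows unbranched filaments, had every MCAO rat above every sham rat, at a difference of 9.41e-06. Evl, which keeps filament ends growing, had a standardized difference of -1.47. The median of this list was -0.35, and its mean profile had an r of 0.980 to the other subunits and of 0.463 to Arpc2.

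The calls of Coro1a, Cdc42, Pfn1, Lcp1 and Myl12b rested on the setting. In several settings 0 genes of the inhibitors, the upstream genes and the actin genes were called lower. These were quantile normalization, an FDR under 0.01, limma, only the brighter probe sets and any of the 3 sham rats left out. Without MCAO rat 2 this held for the inhibitors and the upstream genes, and without MCAO rat 1 for the inhibitors. After centring of each array on its median, the median standardized difference of the activators was 1.32 and that of the inhibitors 0.90, and that of the other actin-related proteins, described next, 1.46. Without MCAO rat 3, calls rose in number, to 2 inhibitors, 4 upstream genes, 6 actin genes and partners and 1 activator, with medians of -1.50, -1.51, -1.38 and -0.82. With same-numbered rats as a replicate block, Rank Products called 2 upstream genes and 5 actin genes and partners lower. Without MCAO rat 1, the median of the actin genes and partners was 0.05 and that of the activators 0.25.

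The list of other actin-related proteins held relatives of Actr2 and Actr3 that work in dynactin or in chromatin remodeling, together with Actr3b, an isoform that can take the place of Actr3 in the complex. All 8 were measured, 0 were called, and the median standardized difference was -0.18. Actr8 (-1.95) had every MCAO rat below every sham rat, and Actr3b (1.49) and Actr1a (-1.02) followed in size of the standardized difference. The difference furthest from 0 in this list was that of Actr10, a subunit of dynactin, at -8.33e-05 (SE 6.52e-05). The genes not measured by a probe set of their own were Was, Wipf2 and Jmy among the activators, Dock2 among the signalling genes, and Actb, Cfl1, Dstn and Tmsb10 among the actin genes and partners.

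Markers of blood cells moved with the subunits to different degrees. Of the B cell markers 5 of 8 were measured and all 5 had a lower mean in MCAO. Fcmr and Ms4a1 were called lower, these and Cd79b had every MCAO rat below every sham rat, the median standardized difference was -1.70, and the mean profile had an r of 0.842 to Arpc2 and of 0.677 to the other subunits. The summed level of the 5 B cell markers on the linear DFW scale was 485.6 to 486.5 in the MCAO rats and 486.5 to 487.4 in the sham rats. With limma or without sham rat 2 or sham rat 3, 0 B cell markers were called. For the T cell and the NK and cytotoxic markers this held as well. Of these 2 lists, 0 markers were also called without MCAO rat 1 or with an FDR under 0.01. With quantile normalization 0 T cell markers were called, and without MCAO rat 2 or sham rat 1, 0 NK and cytotoxic markers. All 8 T cell markers had a lower mean in MCAO and 2 were called, Cd3g and Tcf7, with a median of -1.16, a summed level of 746.9 to 748.8 in the MCAO rats and 748.3 to 749.7 in the sham rats, and an r of 0.848 to the other subunits and of 0.641 to Arpc2. Of the NK and cytotoxic markers, 7 of 8 were measured, Ccl5 and Prf1 were called lower, and the median was -0.61. Their summed level was 583.9 to 589.7 in the MCAO rats and 587.1 to 589.9 in the sham rats. Their mean profile had an r of 0.851 to the other subunits and of 0.358 to Arpc2. A range over 0.002 was seen at 2 B cell, 5 T cell and 3 NK and cytotoxic markers. Over all probe sets, 0.602% were called lower and 3.6% had every MCAO rat below every sham rat. Among those with a range over 0.002 these shares were 25.5% and 9.63%, with a median standardized difference of -0.65.

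Among myeloid markers, 7 of 8 neutrophil markers were measured and their median standardized difference was 0.54. Csf3r was called higher, and S100a9 was called lower although its mean was higher in MCAO by 0.0027 (SE 0.028). The median of the neutrophil markers was -0.84 without MCAO rat 3 and 0.14 with quantile normalization, and 0 of them were called with quantile normalization, an FDR under 0.01, the brighter probe sets, limma or MCAO rat 2 left out. The call of S100a9 was also lost, with 0 lower calls in the list, without MCAO rat 1 or any of the sham rats. The summed level of the neutrophil markers was 1042 to 1096 in the MCAO rats and 1060 to 1070 in the sham rats, and their mean profile had an r of 0.629 to the other subunits and of -0.186 to Arpc2. All 7 monocyte markers were measured, 1 was called lower (Cd36), the median was 0.01, the summed level was 2031 to 2102 in the MCAO rats and 2052 to 2088 in the sham rats, and r was 0.857 to the other subunits and 0.0872 to Arpc2. With limma, an FDR under 0.01 or without sham rat 2 or sham rat 3, 0 monocyte markers were called lower, and 1 was called higher without sham rat 2. The monocyte median was -0.89 without MCAO rat 3 and 0.56 after centring. The 7 platelet, 6 erythroid and 4 heart muscle markers measured had 0 calls, with medians of 0.29, -0.73 and 0.06. The sign of each depended on the setting, with a platelet median of -0.72 without MCAO rat 3, an erythroid median of 0.76 with quantile normalization and a heart muscle median of -0.36 without MCAO rat 1 and of 1.38 after centring. The part of the shares of these cells in the levels of Arpc2 and of the other subunits was not tested.

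**Figure D5:**
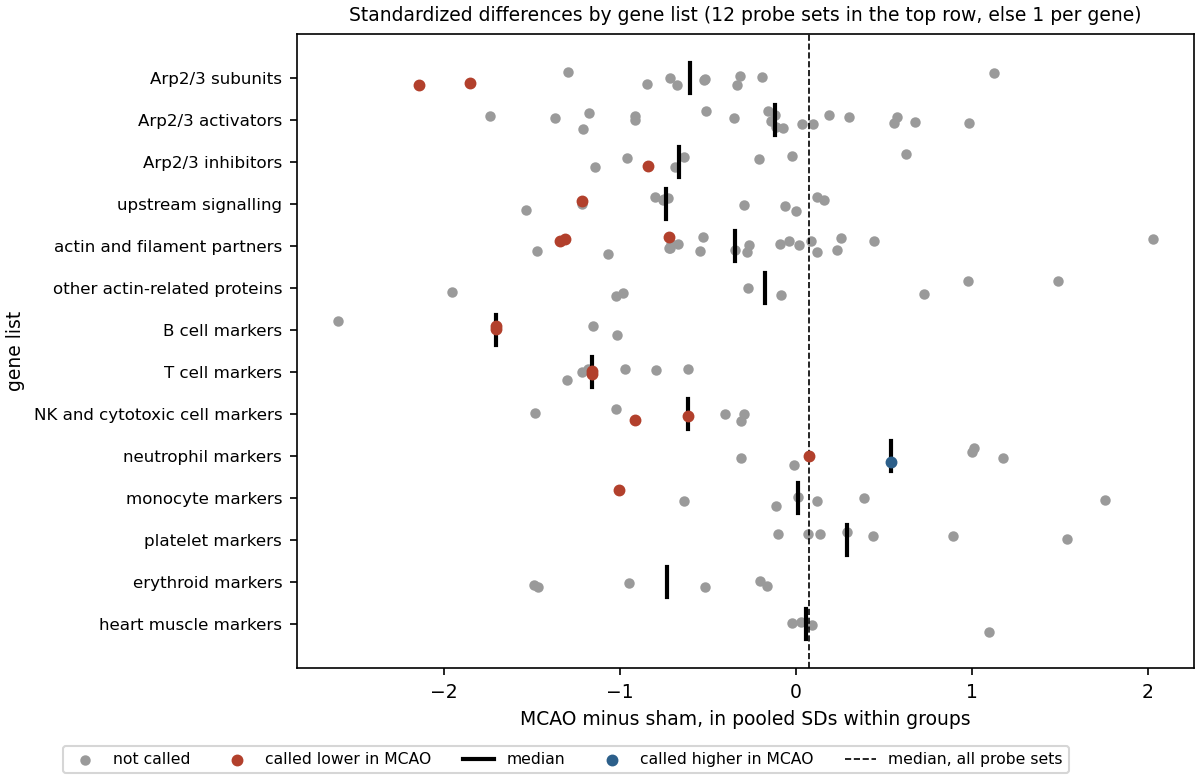
Standardized difference, MCAO minus sham in pooled SDs within groups (horizontal axis), of the 12 subunit probe sets and of the genes of 13 lists (vertical axis, 1 point per gene), with calls by Rank Products in color, the median of each list as a bar and the median of all probe sets, 0.08, as a dashed line. Both Arpc2 points stand at the low end of the subunits, and the B cell markers have the lowest median of the lists, -1.70, although with quantile normalization it was -0.81 against -1.04 for the T cell markers.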

How the data were processed

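The authors hybridized biotin-labeled cRNA from blood of 3 MCAO and 3 sham rats to 1 array each, normalized the arrays with the DFW method in R and deposited the log2 values, 1 for every probe set on each array. The log base was inferred from the range of 4.93 to 14.43. No columns of comparisons by the authors were among the values.

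After 57 control probe sets were left out, 31042 were tested. Of these, 20837 had 1 gene symbol, 425 several and 9780 none, and 20758 of the first matched GRCr8 by gene ID. Rank Products, the method named in the study, was written anew in Python 3.11.15 (numpy 2.4.6, pandas 2.3.3, scipy 1.17.1, matplotlib 3.10.9) with the 9 pairwise differences of MCAO minus sham, 100 permutations (values shuffled over probe sets in every array) and an FDR under 0.05. limma 3.58.1 in R 4.3.3 gave standard errors and, as an alternative, Benjamini-Hochberg adjusted p values. Because 3 rats per group allow an exact two-sided permutation p of 0.1 at the lowest, no such test was used. The methods were tested on simulated data in which all probe sets had the same spread, which the DFW values do not have. They vary unequally between probe sets, so that those with a wide range take the extreme ranks, and precision is limited by the small number of arrays. The labels do not say more of the replicates than that they are numbered rats.

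The members and the lists were chosen with earlier results of these data known. Named were all subunit probe sets, the called genes and the 3 with the largest standardized difference of each pathway list, and the 10 genes most like Arpc2 (range over 0.01). The markers named are those called or separated, and genes named as not measured or as neighbors follow from the lists and the annotation. The naming of Actr10, Praf2 and Ube2v1, the range of 0.002, the 100 kb window and the setting aside of Arpc1a were chosen after the values were seen. The alternatives were limma, a replicate block, an FDR under 0.01, quantile normalization, centring on the median, only the brighter probe sets, inclusion of the controls, all probe sets of each listed gene and omission of single rats.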

Additional observations from a re-analysis of the deposited data

How the results depend on the processing

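Both Arpc2 probe sets were called lower with an FDR under 0.01, quantile normalization, centring, only the brighter 15521 probe sets, inclusion of the controls and each rat left out. limma called 0 of the 12 subunit probe sets and 0 of all, with 1 and 1150 at an unadjusted p under 0.05. Whether the rats' numbers paired them could not be settled with 3 rats per group. The deviations of same-numbered rats over all probe sets had an r of 0.211, 0.0400 and 0.0661 for numbers 1, 2 and 3. MCAO rats 1 and 2 correlated best with the sham rat of the same number, whereas MCAO rat 3 correlated best with sham rat 2 (0.166). With the number as a replicate block, Rank Products called 4 subunit probe sets lower (Arpc2, Actr2 and Arpc5) and limma called 0. Over all probe sets the block gave 292 lower calls and 59 higher against 187 and 40. With each rat left out, 2 to 5 subunit probe sets were called lower, with Actr2, Arpc3 and Arpc5 added without MCAO rat 3. The number with every MCAO rat below every sham rat was 2 to 4, with 4 without MCAO rat 3 or sham rat 1. The number above was 0 to 1, with 1 without MCAO rat 1, and it was 1 after centring. The median standardized difference of the other subunits was -1.57 to 0.13. The cause was not tested.

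Calls over all probe sets moved strongly with single rats. Lower and higher calls numbered 254 and 13, 170 and 15, and 350 and 18 without MCAO rats 1, 2 and 3, and 42 and 47, 21 and 49, and 13 and 61 without sham rats 1, 2 and 3. An FDR under 0.01 gave 52 and 27, the brighter probe sets 89 and 30, and quantile normalization 79 and 26. Centring turned the sign of Arpc4 (8.72e-06), and leaving out MCAO rat 1 turned that of the 3 Actr2 probe sets and Arpc1b. With values that hold no background estimate, what signal limits could not be given.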
